A study of Mus musculus with 24 samples.

Results

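The response of cultured mouse neurons to tunicamycin (TM) was compared, gene by gene, with that of cultured mouse astrocytes when both were labelled Perk KO. The comparison rested on the 12 Perk KO libraries out of 24 libraries in the series, taken by their labels, with 3 libraries in each of 4 groups: control neurons, TM-treated neurons, control astrocytes and TM-treated astrocytes. All cultures came from PerkloxP/loxP mice, in which both alleles of Perk (gene symbol Eif2ak3) are flanked by loxP sites. A lentivirus for active Cre recombinase made the Perk KO cells in the dish, and one for an inactive form, ΔCre, made the WT cells used for a second comparison, as the labels describe. On day in vitro 14 the treated cultures were given 5 µg/mL of TM, which stayed on for 24 hours (20 to 24 in the series' design text), while the control cultures had the solvent DMSO. Neurons and astrocytes were kept in the same supplemented neurobasal medium. Neither the age and number of mice nor the promoter of the Cre vector or the share of cells transduced is given in the sources used here. The labels call the 3 replicates of a group biological, without saying whether they are separate cultures or animals, and the p-values cover only how these libraries vary.

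TM blocks the first step of N-linked glycosylation, so that glycoproteins misfold in the endoplasmic reticulum (ER). Cells answer through 3 sensors in the ER membrane: PERK, which phosphorylates the translation factor eIF2 and thereby favours translation of ATF4 and later expression of CHOP; IRE1, which splices the mRNA of Xbp1; and ATF6, which is cut in the Golgi to release a transcription factor. XBP1 and ATF6 induce chaperones, folding enzymes and degradation genes of the ER, and ATF4 can also be reached through the other eIF2 kinases. Astrocytes support neurons and turn on a reactive programme, with interferon, NF-kB and STAT3 targets, in injury and disease.

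The 3 promoter motifs tied to these responses that were searched on both strands, in the 250 bases upstream of each gene start (RefSeq, GRCm38.p6), were the ER stress response element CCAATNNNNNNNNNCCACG of chaperone genes, the interferon-stimulated response element GAAANNGAAA, and the CHOP-ATF response element TGATGNAA. They occurred in 0.113%, 2.98% and 3.45% of 32851 windows. The first was in 4 of 12 windows of the list of BiP, GRP94 and their cochaperones (12 of its 16 genes matched the table), the second in 12 of 26 windows of the interferon-stimulated list (22 of 27 genes matched) and the third in 6 of 22 windows of the list of PERK-ATF4-CHOP targets (18 of 20 genes matched). The first was also in 2 of 19 windows of the disulfide isomerases and ER oxidases and 2 of 20 of ER-associated degradation. It was in 0 of 15 windows of the translocon and signal peptidase list. The stretches below were picked from genes that hold a motif and whose changes are described in the text. Described genes without a match are not shown, nor are all of those with one, such as Asns. They run 5′ to 3′ on the gene's own strand, given after the coordinates, and capitals mark the motif or its reverse complement. A match is a description of letters only.
Hspa5 (chr2:34772020-34772048, plus strand): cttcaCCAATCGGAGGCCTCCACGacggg
Hsp90b1 (chr10:86705528-86705556, minus strand): gagtgCGTGGTGAGGCACGATTGGtgagt
Creld2 (chr15:88819495-88819563, plus strand): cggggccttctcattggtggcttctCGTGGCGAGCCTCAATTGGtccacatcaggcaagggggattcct
Derl3 (chr10:75893217-75893285, plus strand): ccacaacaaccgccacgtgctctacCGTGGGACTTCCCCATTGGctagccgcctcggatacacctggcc
Ifit3 (chr19:34583348-34583441, plus strand): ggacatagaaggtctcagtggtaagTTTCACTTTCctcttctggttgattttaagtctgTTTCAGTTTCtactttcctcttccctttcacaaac
Igtp (chr11:58199497-58199555, plus strand): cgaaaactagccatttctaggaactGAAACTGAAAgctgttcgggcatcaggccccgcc
Gbp2 (chr3:142620595-142620622, plus strand): ctcttttagTTTCACTTTCactgtctta
Atf3 (chr1:191183411-191183468, minus strand): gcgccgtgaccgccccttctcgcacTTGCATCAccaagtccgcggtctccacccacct
Chac1 (chr2:119351024-119351081, plus strand): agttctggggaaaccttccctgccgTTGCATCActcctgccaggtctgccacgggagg

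Counts of Eif2ak3 over the whole gene were lower in every Perk KO library than in every WT library. Which exons Cre removes is not given in the sources used here, and the origin of the remaining counts was not tested. They were 5.55, 5.09 and 5.05 CPM (counts per 1000000 counts of the library) in control Perk KO neurons against 35.7, 35.8 and 31.3 in control WT neurons, and 6.14, 8.04 and 6.89 against 26.3, 28.1 and 25.7 in the astrocytes. The Perk KO libraries held 17161558 to 25934747 counts. Replicates varied beyond counting error, and most of all TM-treated neuron replicates 1 and 2 (chi-square per gene 64.2, against 6.71 to 32.4 for the other pairs). Levels below are CPM, normalised by TMM over the 12 libraries. Mature neuronal markers were near 0 in astrocyte cultures: Neurod6 was at 0 in all 6 libraries and Rbfox3 at most 0.447 CPM, against 146, 147 and 137 in control neurons. The 15 neuronal markers still summed to 439 to 468 CPM there, mainly Map2, Stmn2 and Camk2a, against 6416 to 7077 in control neurons. The neuron cultures held astrocyte RNA: 15 astrocyte markers summed to 5868 to 6047 CPM in control neurons and 5172 to 6358 in TM-treated ones, against 4060 to 5290 and 2824 to 3364 in astrocytes. Single markers went both ways, so the sum does not rank the cultures by astrocyte content. Slc1a2 (720, 705 and 772 CPM in control neurons, 67.4, 64.5 and 46.5 in control astrocytes), Aldoc, Glul, Slc4a4, S100b and Ntsr2 were higher in neurons. So was Gjb6, at no more than 0.415 CPM in control neurons. Aqp4 (246, 282.5 and 263 against 917, 805 and 542), Aldh1l1, Gja1, Fgfr3 and Sox9 were higher in astrocytes. In such bulk libraries fewer cells of a type and less RNA per cell cannot be told apart, and a change in "neurons" is a change in these mixed cultures.

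**Figure D1:**
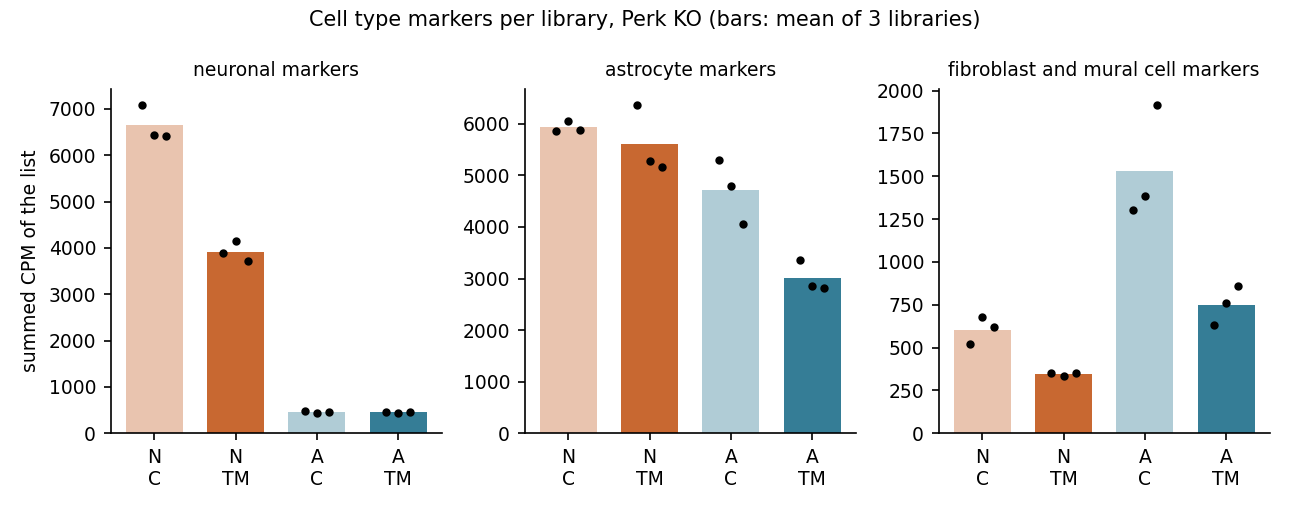
Summed CPM of the neuronal, astrocyte and fibroblast marker lists (y axis) in control (C, pale) and TM-treated (dark) Perk KO neuron (N) and astrocyte (A) cultures; bars are means and points the 3 libraries. Neuronal markers fall from 6416 to 7077 CPM to 3720 to 4148 CPM in neuron cultures, and astrocyte markers sum to 5868 to 6047 CPM in control neuron cultures against 4060 to 5290 CPM in control astrocyte cultures. Among controls, Slc1a2, Aldoc, Glul, Slc4a4, S100b, Ntsr2 and Gjb6 are higher in neuron cultures, and Aldh1l1, Aqp4, Gja1, Fgfr3 and Sox9 in astrocyte cultures. The fibroblast sum in astrocyte cultures is mainly Acta2 and Myl9.

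TM changed 4452 of 16059 genes tested in Perk KO neurons (2395 higher, 2057 lower) and 1541 in Perk KO astrocytes (784 higher, 757 lower), at a Benjamini-Hochberg adjusted p under 0.05 in edgeR's quasi-likelihood test. With library totals in place of TMM scaling the neuron calls became 2786 higher and 1580 lower, and without TM-treated astrocyte replicate 2 the astrocyte count was 991. The response itself differed between the cell types for 1875 genes. For 767 of them the difference (log2 change in astrocytes minus log2 change in neurons) was positive, here called higher in astrocytes, and for 1108 it was negative, or lower in astrocytes. This split moved with the scaling: it was 890 and 911 with DESeq2's size factors, 1359 and 1345 by DESeq2, and 659 and 1344 with library totals. The count was 3383 without TM-treated neuron replicate 2, 1010 without TM-treated astrocyte replicate 2, 1010 without control neuron replicate 1, 1155 without control neuron replicate 3 and 1220 without TM-treated neuron replicate 3. Of the 1875, 691 rose and 520 fell in neurons with no call in astrocytes, 107 rose and 210 fell in astrocytes with no call in neurons, and 138 had no call in either. The genes that rose in both cell types numbered 474, which is 19.8% of the neuron rises and 60.5% of the astrocyte rises. Of these 474, 62 had a called difference (27 higher and 35 lower in astrocytes), while 1875 of all 16059 genes tested had one. Another 243 fell in both, while 66 rose in neurons and fell in astrocytes and 52 did the opposite. Across all genes tested the log2 changes of the cell types had a Pearson r of 0.22, and genes are not independent replicates.

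**Figure D2:**
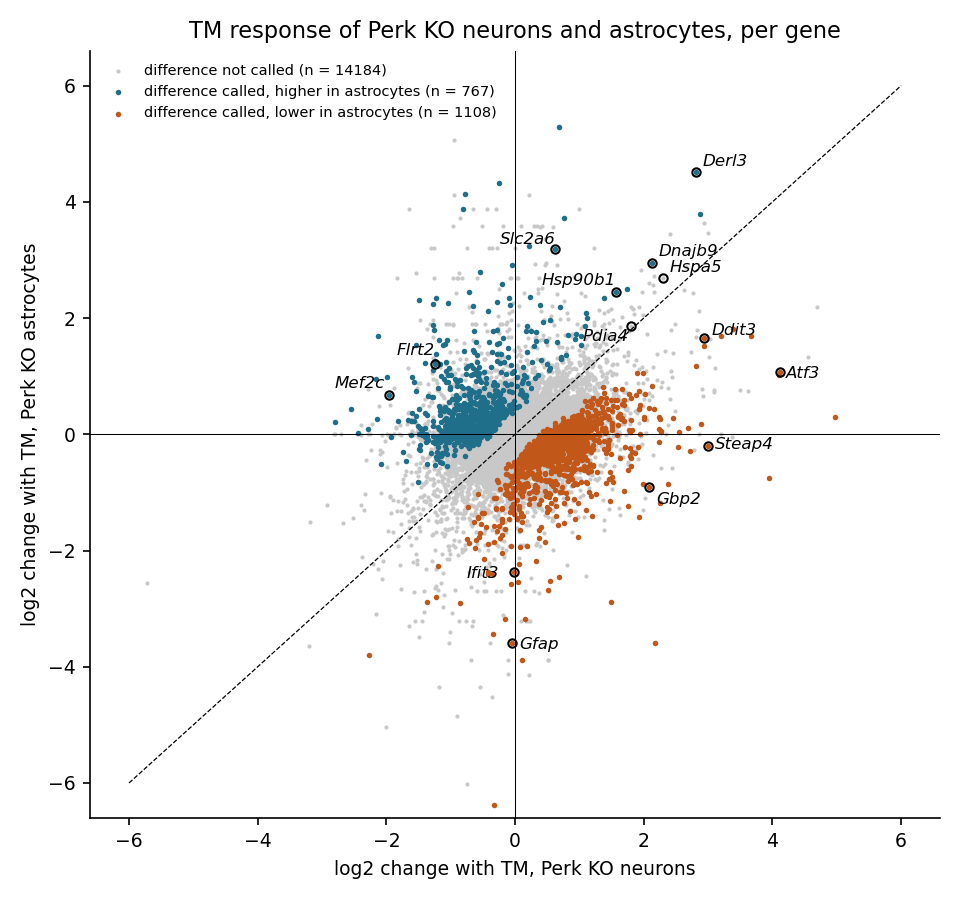
Each point is 1 of 16059 genes, with its log2 change with TM in Perk KO neurons (x axis) and astrocytes (y axis); colour marks the 767 genes with a difference called higher and the 1108 called lower in astrocytes, and the dashed line marks equal change. Chaperone genes lie in the upper right near the line, Atf3 far below it, and Gfap and Ifit3 low on the y axis with an x value near 0.

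Much of the ER folding and secretion machinery rose in both cell types, and some of its genes rose by similar amounts. Pdia4, a protein disulfide isomerase, was at 85.4, 110.1 and 94.7 CPM in control neurons and 383, 280.0 and 346 with TM, and at 329.6, 261 and 274 and then 925, 1062 and 1156 in astrocytes. All treated libraries lay above all controls of their cell type, and astrocytes started higher. Its log2 change was 1.80 ± 0.15 (SE, n = 3 libraries a group) in neurons and 1.86 ± 0.15 in astrocytes, and the difference of 0.06 ± 0.20 had a 95% interval of -0.38 to 0.50 (adjusted p = 0.88, edgeR). The interval lay within 0.5 log2 for 118 protein-coding genes that rose in both, and the genes that follow were named by this rule. Among those with the largest rises were P4hb, another disulfide isomerase (1.502 in neurons and 1.66 in astrocytes), Stt3a, the catalytic subunit that attaches glycans (1.36 and 1.44), and Tmed3, a cargo receptor of ER export (1.58 and 1.46). Tram1, Sec61b and Ssr3, parts of the channel that takes proteins into the ER, belonged there too, with log2 changes of 1.41, 1.42 and 1.27 in neurons and 1.56, 1.43 and 1.31 in astrocytes.

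By list, 18 of 20 translocon and signal peptidase genes rose in neurons and 17 in astrocytes, and 17 rose in both. Of all genes tested, 14.9% rose in neurons and 4.88% in astrocytes. The background for the difference was 4.78% higher and 6.90% lower, and none of the 20 was called by edgeR. At an unadjusted p under 0.05 there were 4 of the 20, against a background of 4432 of all 16059 genes tested. DESeq2 called 3 and the fit with a replicate block 2. Without TM-treated neuron replicate 1 edgeR called 2, and without TM-treated neuron replicate 2 it called 1. The members nearest to a call were Sec61a1, the channel's pore subunit (1.28 in neurons, 1.65 in astrocytes, adjusted p = 0.0607 and 0.0442 with the block), and Srp72, part of the particle that brings ribosomes to it (0.35 and 0.79, adjusted p = 0.0652 and 0.0254). The median log2 change was 0.89 in neurons and 0.95 in astrocytes, against 0.00 and -0.02 over all genes tested. Of 17 disulfide isomerases and ER oxidases, 15 rose in neurons, 13 in astrocytes and 13 in both. A difference was called for 2 of the 17, both higher in astrocytes (background 4.78%): the oxidase Ero1lb (1.10 in neurons, 2.09 in astrocytes, adjusted p = 0.00452) and Txndc11 (0.66 and 1.59, adjusted p = 0.00775). Of 22 genes of ER-associated degradation, which takes misfolded proteins to the proteasome, 15 rose and 1 fell in neurons and 12 rose in astrocytes, all 12 in both, and 2 differed, 1 in each direction. These were Derl3, described below, and Sdf2, a partner of BiP complexes, which rose in neurons (0.75) and was at 0.21 in astrocytes without a call (difference -0.54 ± 0.16, adjusted p = 0.0422, lost with DESeq2's size factors, adjusted p = 0.0539, and without any 1 of 10 libraries). Herpud1, which organises the degradation complex in the membrane, rose in both (1.80 ± 0.17 and 2.19 ± 0.17) with an interval of the difference of -0.12 to 0.90. Its scaffold Sel1l (0.52 and 0.90) and the related Herpud2 (0.47 and 0.16) had differences with adjusted p values of 0.0523 and 0.178.

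Chaperones of the BiP and GRP94 system rose in both cell types, several of them further in astrocytes. Hsp90b1, which encodes GRP94, was at 381, 398 and 377 CPM in control neurons and 1028, 1189 and 1204 with TM, and at 602, 598 and 615 and then 3038, 3556 and 3308 in astrocytes. The treated libraries lay far above the controls in both. Its log2 change was 1.56 ± 0.10 in neurons and 2.45 ± 0.11 in astrocytes, a difference of 0.88 ± 0.14 (adjusted p = 0.00285, edgeR). Dnajb9, a cochaperone of BiP, started alike at 69.0, 66.1 and 65.9 CPM in neurons and 62.3, 66.8 and 67.8 in astrocytes and reached 274, 281 and 324 and 450.5, 541 and 525. The treated libraries of the cell types did not overlap, and the difference was 0.82 ± 0.14 (adjusted p = 0.00407). With a correction for GC content it was 0.48 and not called (adjusted p = 0.139, and 0.065 with a replicate block as well).

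Hspa5, which encodes BiP itself, was at 536, 561 and 509.6 CPM in control neurons and 2899, 2234 and 2788 with TM, and at 868, 939.9 and 1018 and then 4899, 6503 and 6914 in astrocytes. Both rises were called (2.30 ± 0.15 and 2.70 ± 0.15), but the difference of 0.39 ± 0.20 was not (95% interval -0.05 to 0.84, adjusted p = 0.233). Hyou1, a partner of BiP that exchanges its nucleotide, and Hspa13, an Hsp70-like protein of the ER, had differences of 0.98 ± 0.19 (adjusted p = 0.00711) and 0.88 ± 0.17 (adjusted p = 0.00688). Creld2, a secreted chaperone-like protein, rose from 15.8, 19.0 and 16.7 CPM to 82.1, 63.6 and 84.1 in neurons and from 51.6, 40.8 and 49.1 to between 201 and 321 in astrocytes, and its interval of -0.22 to 0.80 (adjusted p = 0.47) included 0. Of the 16 genes of this list, 15 rose in neurons, 14 in astrocytes and 14 in both. A higher difference in astrocytes was called for 5 and lower for none, 4 to 5 and 0 to 1 with each library left out. The median log2 change was 1.04 in neurons and 1.27 in astrocytes.

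The same direction was seen for Xbp1, Sdf2l1 and Derl3. Xbp1, whose mRNA IRE1 splices, rose from 70.6, 67.4 and 62.5 CPM to 154, 123 and 149 in neurons and from 42.4, 47.8 and 52.0 to 139.8, 183 and 196 in astrocytes. Astrocytes started lower and 2 of their 3 treated libraries ended above every treated neuron library. The difference was 0.78 ± 0.19 (adjusted p = 0.0202, and 0.0563 without TM-treated astrocyte replicate 2). Sdf2l1, a component of BiP complexes, had log2 changes of 2.87 and 3.79, and the call of its difference (0.92 ± 0.27, adjusted p = 0.0412) was lost without any 1 of 8 of the 12 libraries (adjusted p up to 0.089). Derl3, a derlin of ER-associated degradation, was at 1.05, 1.90 and 1.33 CPM and 9.23, 7.60 and 13.0 in neurons and 1.15, 0.614 and 0.488 and 13.8, 16.6 and 21.4 in astrocytes. These levels are low, its difference was 1.70 ± 0.47 (adjusted p = 0.0353), and the call was lost with a replicate block (adjusted p = 0.0515) and without any 1 of 7 libraries (up to 0.0959). For the sensors Atf6 (0.78 in neurons, 0.83 in astrocytes) and Ern1, which encodes IRE1 (0.58 and 0.11), the intervals of the difference were -0.28 to 0.38 and -0.98 to 0.03, and neither was called (adjusted p = 0.863 and 0.204).

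Glycan synthesis, the process TM blocks, also rose in both cell types: of 28 genes for the dolichol-linked glycan and its transfer to proteins, 15 rose in neurons and 19 in astrocytes, 13 of them in both. The 4 called differences were all higher in astrocytes. Alg2, a mannosyltransferase, went from 239.7, 239.9 and 236 CPM to 532, 442 and 474 in neurons and from 78.2, 66.5 and 72.0 to 234, 227 and 242 in astrocytes, log2 changes of 1.02 and 1.70 (difference 0.68 ± 0.13, adjusted p = 0.00764). Alg12, another mannosyltransferase, differed by 0.69 ± 0.20 (adjusted p = 0.0411, lost without any 1 of 7 libraries, up to 0.104), Gfpt1, the first enzyme of the hexosamine pathway, by 0.66 ± 0.15 (adjusted p = 0.0146), and Uap1, which makes UDP-N-acetylglucosamine, by 0.84 ± 0.14 (adjusted p = 0.00319). These enzymes supply or build the sugar chain. Uap1 rose in astrocytes (0.57 ± 0.10) and was at -0.26 ± 0.10 in neurons without a call.

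Targets of the PERK-ATF4-CHOP branch rose in both cell types in the Perk KO cells, and the called differences were all larger rises in neurons. Counts of Eif2ak3 were reduced but still present in these cultures, and their part in these rises was not tested. Of 19 tested of 20 genes, 15 rose in neurons and 10 in astrocytes, 9 of them in both, with median log2 changes of 1.12 and 0.64. Lower differences in astrocytes were called for 7 and higher ones for none. It was called lower for 3 without TM-treated astrocyte replicate 2, control astrocyte replicate 2 or 3, TM-treated neuron replicate 3 or control neuron replicate 1 or 3, for 4 without TM-treated astrocyte replicate 1, and for 8 with 1 called higher without TM-treated neuron replicate 2. Atf3, a stress-induced transcription factor, carried the largest difference. It was at 7.56, 9.07 and 9.16 CPM in control neurons and 144, 137 and 165 with TM, and at 32.5, 52.6 and 45.0 and then 56.5, 105 and 112 in astrocytes. Control astrocytes held several times the level of control neurons, and TM brought neurons above all astrocyte libraries. The log2 changes were 4.12 ± 0.26 and 1.07 ± 0.23, a difference of -3.04 ± 0.33 (adjusted p = 0.000408, and 0.00016 to 0.00269 with each library left out).

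Ddit3, which encodes CHOP, went from 47.7, 35.05 and 35.5 CPM to 349.8, 266 and 292 in neurons and from 39.6, 70.5 and 78.4 to 136, 201 and 255 in astrocytes. Every treated library lay above the controls of its cell type, and the treated neuron libraries lay above the treated astrocyte libraries. Its changes of 2.94 ± 0.27 and 1.65 ± 0.26 differed by -1.29 ± 0.36 (adjusted p = 0.0365), a call lost without any 1 of 9 libraries (adjusted p up to 0.0886). Ppp1r15a, which encodes the eIF2 phosphatase subunit GADD34, had changes of 2.12 ± 0.27 and, without a call, 0.83 ± 0.25, and its difference of -1.30 ± 0.36 (adjusted p = 0.0364) was lost without any 1 of 8 libraries (up to 0.0828).

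Sesn2 and Ddit4, both inhibitors of the growth kinase mTORC1, also differed. Ddit4 was at 89.4, 89.6 and 89.9 CPM in control and 196, 169 and 221 in treated neurons, and at 144, 115 and 131 and 131, 102 and 116 in astrocytes, where the groups overlap. Its difference was -1.28 ± 0.17 (adjusted p = 0.00113) and that of Sesn2 -1.11 ± 0.15 (adjusted p = 0.00106). Atf4 itself was at 234, 210.4 and 199 CPM and 427, 359.5 and 455 in neurons and at 92.4, 138 and 155 and 173, 269 and 302 in astrocytes. It rose in both, by 0.95 ± 0.21 and 0.95 ± 0.21, and the 95% interval of the difference was -0.64 to 0.64. Chac1, a glutathione-degrading enzyme, and Trib3, a pseudokinase induced by CHOP, rose in both (1.88 and 2.20 in neurons, 1.27 and 1.39 in astrocytes), and their intervals of -1.57 to 0.36 and -1.80 to 0.18 included 0. Asns, asparagine synthetase and an ATF4 target, did not pass the test in either cell type (0.73 ± 0.27, adjusted p = 0.0579, and 0.87 ± 0.27, adjusted p = 0.0643). Eif2ak3 rose in both by 1.22 and 0.98 at its reduced level, and Eif2ak4, the eIF2 kinase GCN2, showed no call (0.15 and 0.00).

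**Figure D3:**
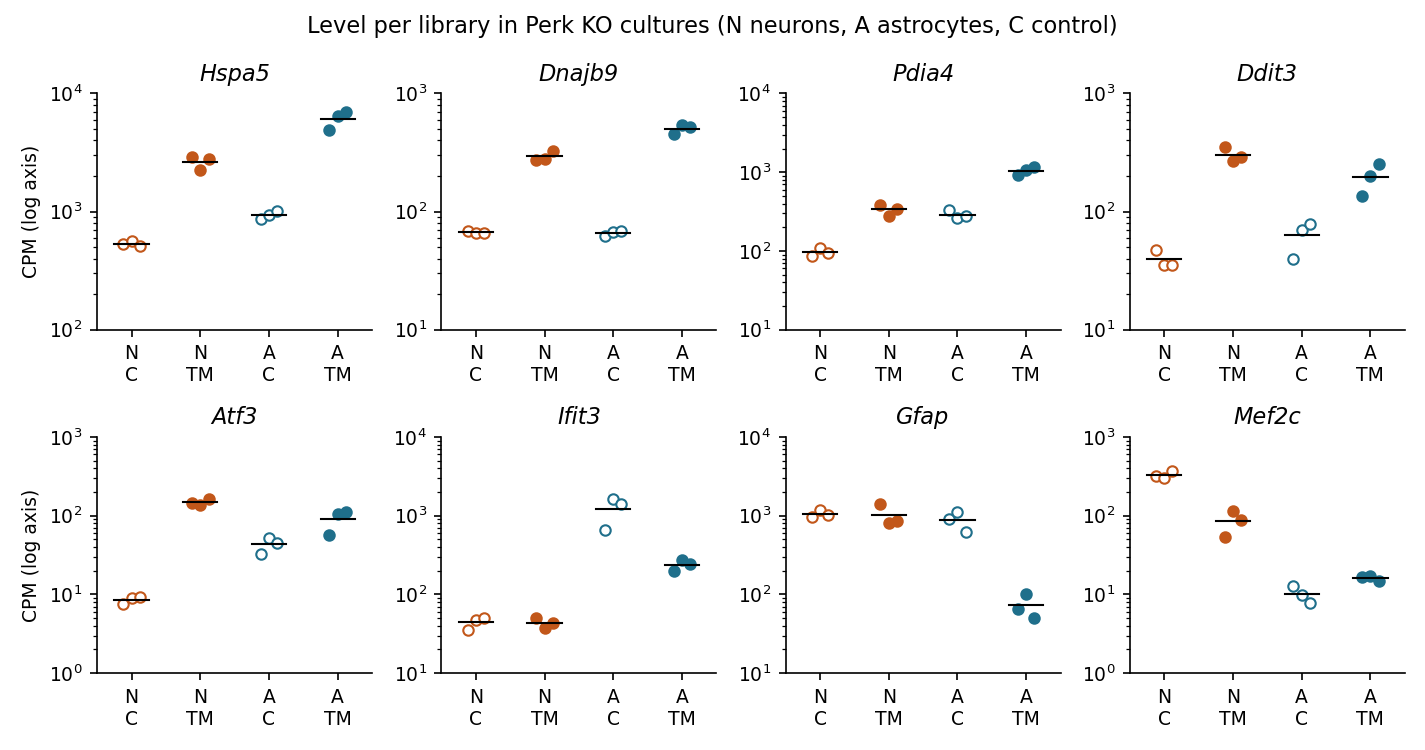
Level of 8 genes in CPM (log axis) in each Perk KO library, control (open) and TM (filled), in neurons (N) and astrocytes (A); the line is the mean of 3 libraries. Hspa5, Dnajb9 and Pdia4 rise in both, Ddit3 and Atf3 rise further in neurons, Ifit3 and Gfap fall in astrocytes while their neuron groups overlap, and Mef2c falls in neurons.

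Other stress lists moved in neurons with few calls in astrocytes. Of 14 BCL2 family genes, which govern mitochondrial cell death, 5 rose in neurons and 2 rose and 1 fell in astrocytes. The 4 called differences were all lower in astrocytes, and 3 were genes of BH3-only death activators. Bbc3, which encodes PUMA, was at 28.8, 28.9 and 28.9 CPM in control and 98.9, 122 and 126 in treated neurons, and at 45.1, 55.7 and 57.5 and 61.3, 61.8 and 66.2 in astrocytes. The control and treated libraries overlap in neither cell type, and they lie much further apart in neurons. It rose in neurons (2.00 ± 0.12) with no call in astrocytes (0.26 ± 0.12), a difference of -1.74 ± 0.16 (adjusted p = 0.000162). Bcl2l11 (BIM) differed by -1.74 ± 0.22 (adjusted p = 0.000876), Pmaip1 (NOXA) by -1.07 ± 0.23 (adjusted p = 0.0116) and the effector Bax by -0.62 ± 0.14 (adjusted p = 0.0169).

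Of 19 NRF2 and oxidative stress targets, 13 rose in neurons, and 2 rose and 1 fell in astrocytes, and 4 had a difference called lower in astrocytes (1 without TM-treated astrocyte replicate 2 or control neuron replicate 3, 2 without control neuron replicate 1, and 8 without TM-treated neuron replicate 2). Mt1, a metallothionein that binds metal ions, was at 568, 652 and 554 CPM and 1628, 893 and 1297 in neurons and 856, 733 and 846 and 745, 696 and 790.3 in astrocytes. The neuron groups do not overlap and the astrocyte groups do, with a difference of -1.23 ± 0.24 (adjusted p = 0.00809). The others were 3 enzymes of antioxidant defence: Srxn1, which repairs peroxiredoxins (1.34 in neurons and 0.63 in astrocytes), Gclm, a subunit of the enzyme that starts glutathione synthesis (0.36 and -0.14), and Nqo1, a quinone reductase (0.99 and 0.07). Their differences of -0.71, -0.50 and -0.92 had adjusted p values of 0.0198, 0.0219 and 0.0229, and the calls were lost without any 1 of 2, 5 and 4 libraries. Of 20 autophagy and lysosome genes, 9 rose in neurons and none fell, while 2 fell in astrocytes, the lysosomal membrane protein Lamp1 (-0.84 ± 0.09) and the protease Ctsb, the latter named after its value was seen. Lamp1 was at 1209, 1209 and 1163 CPM in control and 664, 622 and 714 in treated astrocytes, and at 603, 664 and 606 and 728, 673 and 727 in neurons, with a difference of -1.02 ± 0.13 (adjusted p = 0.000876). Map1lc3b, an autophagosome protein, the kinase Ulk1, which starts autophagy, and the protease Ctsl rose in neurons (0.65, 0.59 and 0.66) and were at -0.20, -0.21 and -0.12 in astrocytes without a call. In all, 6 of the 20 differed, all lower in astrocytes.

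Of 16 cytosolic heat shock chaperones, 7 rose and 1 fell in neurons, and 1 rose and 1 fell in astrocytes. The differences were called for 4 genes: Hspa1a and Hspa1b, a pair of near-identical copies whose reads may be split uncertainly, rose in neurons (1.49 and 1.90, differences -0.89 and -0.84), Hspb8, a small heat shock protein, moved in opposite directions as given below, and Hspa4 fell in neurons (-0.73) and was at -0.14 in astrocytes (difference 0.59 ± 0.13, adjusted p = 0.0122). The 3 lower calls were 1 without TM-treated astrocyte replicate 2 or control neuron replicate 1 and 5 without TM-treated neuron replicate 2, by DESeq2 or with library totals. The call of Hspa1a (adjusted p = 0.0415) was lost without any 1 of 10 libraries (up to 0.103), with DESeq2's size factors (0.0505) and with the GC correction (0.0578). Of 12 amino acid transporters 11 rose in neurons and 8 in astrocytes, all 8 in both, with 2 differences called lower in astrocytes (4 with a replicate block, none with DESeq2's size factors or without any 1 of 7 libraries): Slc38a2, a neutral amino acid carrier (-0.51), and Slc1a4, a serine and alanine carrier (-0.58). The block added the carriers Slc7a3 (-1.36, adjusted p = 0.115 without and 0.00963 with it) and Slc38a1 (-0.40, 0.291 and 0.0289). Of 13 transcripts that other work has reported as cut by IRE1, 6 rose and 1 fell in neurons, 1 rose and 2 fell in astrocytes, and 5 differed, all lower in astrocytes, among them Tapbp, the peptide-loading chaperone tapasin (-1.12 ± 0.15), and Scara3, a scavenger receptor (-1.30 ± 0.20). The other named members were the growth factor receptor Pdgfrb (-0.89 ± 0.19) and Pdk2, a kinase that holds back pyruvate dehydrogenase (-0.71 ± 0.19, lost without any 1 of 6 libraries). This count was 3 without TM-treated astrocyte replicate 1 or 2 or control neuron replicate 1, and 8 without TM-treated neuron replicate 2.

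Interferon-stimulated genes fell in Perk KO astrocytes, and they fell in WT astrocytes too, as given with the WT cells below. Of 27 such genes, 21 fell and 1 rose in Perk KO astrocytes (background 4.71% and 4.88%), with a median log2 change of -1.81. In neurons 5 rose and 6 fell (background 14.9% and 12.8%), with a median of -0.24. The difference was called lower in astrocytes for 13 genes and higher for none (23 and none with a replicate block, and 10 to 19 with each library left out), and its median was -1.47, against -0.04 over all genes tested. Ifit3, an antiviral protein, was at 664, 1640.1 and 1397 CPM in control astrocytes and 199, 270.4 and 246 with TM. All 3 treated libraries lay below all 3 controls, of which replicate 1 was the lowest. In neurons it was at 34.9, 47.4 and 49.97 CPM and then 50.7, 37.2 and 43.3, where the groups overlap. The difference was -2.36 ± 0.38 (adjusted p = 0.00285), and its near-identical copy Ifit3b, with which it may share reads, had -2.59 ± 0.33 (adjusted p = 0.000913).

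Stat2, a transcription factor of the interferon response, fell from 116, 179 and 151 CPM to 36.0, 44.8 and 36.6 in astrocytes and was at 14.1, 20.8 and 27.1 and 15.2, 26.4 and 17.8 in neurons (difference -1.86 ± 0.35, adjusted p = 0.00608). Oasl2, related to the 2'-5' oligoadenylate synthetases, fell in both (-0.85 in neurons and -2.90 in astrocytes, difference -2.05 ± 0.40, adjusted p = 0.00738). Several guanylate-binding proteins and the related GTPase Igtp, known as targets of interferon gamma, rose in neurons. Gbp2 rose from 12.5, 16.8 and 14.5 CPM to 80.2, 47.9 and 57.5 in neurons and fell from 164, 227 and 211 to 102, 123 and 97.0 in astrocytes. Neither cell type's groups overlapped, and the difference was -2.99 ± 0.27 (adjusted p = 0.000111). Igtp rose in neurons (0.94) and fell in astrocytes (-1.46, difference -2.40 ± 0.30, adjusted p = 0.00083), Gbp6 did the same (1.10 and -1.30), and Gbp5 rose in neurons (2.69) with no call in astrocytes (0.11, difference -2.58 ± 0.45, adjusted p = 0.0045). The Gbp genes are similar in sequence, and their counts are uncertain for that reason. Microglia markers summed to 213, 63.6 and 85.5 CPM in control astrocytes and 61.4 to 89.7 in treated ones, and to 98.6 to 149 and 83.3 to 124 in neurons. Their part in the result was not tested.

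Gfap, the intermediate filament of astrocytes, showed the most negative difference among protein-coding genes named by size. It was at 904, 1101 and 628 CPM in control and 65.5, 102 and 49.99 in TM-treated astrocytes, with a log2 change of -3.60 ± 0.30. In neuron cultures it was at 959, 1197 and 1034 CPM and 1417, 815 and 850.2, and the groups overlap (-0.05 ± 0.27). The difference was -3.55 ± 0.40 (adjusted p = 0.000456, and 0.000146 to 0.00293 with each library left out).

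Other astrocyte genes moved in both directions. Of 14 tested astrocyte markers, 1 rose and 6 fell in astrocytes, 4 rose and 2 fell in neurons, and 7 differed, all lower in astrocytes (6 to 7 with each library left out). Atp1b2, a sodium pump subunit, fell from 310.2, 270.2 and 265 CPM to 124, 119 and 152 in astrocytes and was at 244, 315 and 328 and 347, 357 and 378 in neurons (difference -1.39 ± 0.18, adjusted p = 0.00094). The neurotensin receptor Ntsr2 differed by -1.86 ± 0.31 (adjusted p = 0.00371) and the calcium-binding protein S100b by -1.65 ± 0.31 (adjusted p = 0.00628). The glutamate transporter Slc1a3 fell in both, from 1057, 1061 and 1001 CPM to 461, 443 and 442 in neuron cultures and from 1184, 854 and 816 to 444, 279.7 and 283 in astrocytes and was picked after its values were seen. Fibroblast and mural cell markers summed to 1301 to 1914 CPM in control and 631 to 859 in treated astrocytes, and to 519 to 677 and 335 to 349 in neurons. In astrocytes the sum and its fall were mainly those of Acta2 (900, 936 and 1317 CPM to 410, 490 and 523) and Myl9 (239, 258 and 348 to 109, 133 and 145). There Lum was at most 0.223 CPM, and the groups of Col1a2 overlapped (46.8, 50.2 and 65.9, then 43.6, 47.5 and 66.5). The part of such cells in the changes of astrocyte genes was not tested.

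Many genes of reactive astrocytes rose in the neuron cultures: 16 of 34 rose and none fell in neurons (median 0.69), while 3 rose and 6 fell in astrocytes (median -0.11). The difference was called lower in astrocytes for 11 and higher for 1, Fkbp5, a cochaperone of steroid receptors that was named after its value was seen. Steap4, a metalloreductase, was at 5.61, 11.7 and 8.59 CPM in control and 77.8, 68.6 and 58.6 in treated neurons, and at 286, 131 and 111 and 233, 147 and 81.2 in astrocytes. The neuron groups were far apart and the astrocyte groups overlapped, with a difference of -3.19 ± 0.57 (adjusted p = 0.00493). Ggta1, a galactosyltransferase, and Serping1, an inhibitor of complement, rose in neurons (0.54 and 0.63) and fell in astrocytes (-1.02 and -0.63), with differences of -1.56 ± 0.22 (adjusted p = 0.00142) and -1.26 ± 0.19 (adjusted p = 0.00169).

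The STAT3 pathway, which acts upstream of Gfap in reactive astrocytes, had a median difference of -0.80. Socs3, a feedback inhibitor of the pathway, fell from 51.0, 34.9 and 46.2 CPM to 10.8, 10.6 and 13.0 in astrocytes and was at 5.66, 11.4 and 7.15 and 6.18, 9.96 and 9.25 in neurons (difference -2.01 ± 0.35, adjusted p = 0.00439). Stat3 itself rose in neurons (0.47 ± 0.12) and fell in astrocytes (-0.79 ± 0.12), a difference of -1.26 ± 0.18 (adjusted p = 0.00131). The kinase Jak3 and the receptor Il6ra differed by -1.03 ± 0.21 (adjusted p = 0.00844) and -1.17 ± 0.26 (adjusted p = 0.0131). Of 16 genes of the pathway, 3 rose and 2 fell in neurons, none rose and 4 fell in astrocytes, and 7 differed. Of these, 6 were lower in astrocytes and 1 was higher, the inhibitor Socs2, named after its value was seen. No gene was called higher without TM-treated astrocyte replicate 2 or 3 or control neuron replicate 3.

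NF-kB and cytokine genes rose in both: 18 of 21 rose and 1 fell in neurons, and 13 rose and none fell in astrocytes, 13 of them in both (medians 1.24 and 0.93). The difference was called for 4, all lower in astrocytes, and for 7 without TM-treated neuron replicate 2. Ccl2, a chemokine that attracts monocytes, went from 5.61, 8.06 and 7.78 CPM to 81.2, 51.3 and 62.8 in neurons and from 32.8, 59.6 and 61.4 to 146, 184 and 164 in astrocytes (difference -1.51 ± 0.33, adjusted p = 0.0133). The receptor Tlr2 rose in both as well (3.66 and 1.69, difference -1.97 ± 0.34, adjusted p = 0.00432). Cxcl10, a chemokine that interferon also induces, rose in neurons (2.46 ± 0.28) with no call in astrocytes (0.28 ± 0.26), a difference of -2.17 ± 0.38 (adjusted p = 0.00432). Csf1, a growth factor of macrophages, differed by -0.69 ± 0.20 (adjusted p = 0.0455), a call lost with DESeq2's size factors (0.0576), with the GC correction (0.0668) and without any 1 of 8 libraries (up to 0.105).

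Neuronal genes fell in the neuron cultures. Of 15 neuronal markers, 14 fell in neurons (median -0.91). In astrocytes 7 of the 15 averaged under 10 counts and none was called by edgeR or DESeq2. There 2 of the 15 had an unadjusted p under 0.05, against 3502 of all 16059 genes tested. The difference was called higher in astrocytes for 6, for 2 without TM-treated neuron replicate 3 or control neuron replicate 1 or 3, and for 3 without TM-treated astrocyte replicate 1 or 2, control astrocyte replicate 1 or 2 or control neuron replicate 2. Of 22 genes of postsynaptic receptors and scaffolds, 15 fell and none rose in neurons (median -0.75). In astrocytes 3 rose and 1 fell (median 0.06), and 9 had a difference called higher in astrocytes (8 to 13 with each library left out). Camk2a, a kinase of the synapse, was at 921, 849 and 835 CPM in control neurons and 615, 512 and 441 with TM, and at 96.8, 72.5 and 59.0 and 106, 80.5 and 70.2 in astrocytes. The neuron groups did not overlap and the astrocyte groups did. The difference of 0.90 ± 0.27 (adjusted p = 0.0444) lost its call without any 1 of 8 libraries (up to 0.103). Homer1, a scaffold of glutamate receptors, fell from 176, 138 and 143 CPM to 40.1, 77.0 and 55.7 and was at 13.9, 16.4 and 12.2 and 13.9, 13.8 and 13.2 in astrocytes (difference 1.35 ± 0.28, adjusted p = 0.0101).

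The synaptic genes that rose in astrocytes while they fell in neurons included Grin2b, an NMDA receptor subunit (-1.18 and 1.62), the scaffold Dlg2 (-1.27 and 1.11) and the adhesion protein Nlgn1 (-0.92 and 0.67). In astrocytes Grin2b was at 3.16, 1.79 and 1.52 CPM in control and 9.28, 4.75 and 5.83 with TM, against 477, 438 and 542 and 133, 320.0 and 193 in neurons. The treated libraries of astrocytes lay above the controls, far below every neuron library. Tubb3, a neuronal tubulin, fell from 750.0, 721 and 700.5 CPM to 358, 294 and 358 in neurons (difference 1.502 ± 0.32, adjusted p = 0.0116), and Gap43, a protein of growing axons, and Nefm, a neurofilament, fell too (-0.96 and -0.91, differences 0.78 and 1.74). Gap43 lost its call without TM-treated astrocyte replicate 2 or TM-treated neuron replicate 3 (adjusted p up to 0.0652), and Nefm without control astrocyte replicate 1 or control neuron replicate 1 or 3 (up to 0.0548). The sum of neuronal markers in neuron cultures fell to 3720 to 4148 CPM with TM, and the part of this lower sum in the single falls was not tested.

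The largest differences that were higher in astrocytes included falls in neurons. Mef2c, a transcription factor of neuronal activity and survival, was at 321, 301 and 367 CPM in control and 53.1, 114 and 87.0 in treated neurons, and at 12.9, 9.88 and 7.71 and 16.6, 17.3 and 14.7 in astrocytes. It fell in neurons in every library, lowest in replicate 1, and did not pass the test in astrocytes (-1.96 ± 0.23 and 0.68 ± 0.25). The difference of 2.64 ± 0.34 (adjusted p = 0.00091) was the largest among protein-coding genes named by size. Camk4, a calcium-dependent kinase, fell from 153, 137 and 131 CPM to 26.04, 52.3 and 17.3 in neurons with overlapping astrocyte groups (difference 2.41 ± 0.46, adjusted p = 0.00678). Pde1a, a phosphodiesterase that calcium activates, was at similar control levels, 89.2, 91.2 and 89.2 CPM in neurons and 78.2, 94.6 and 86.9 in astrocytes, and only the neuron level fell, to 23.7, 35.3 and 25.7, against 97.9, 111 and 98.1 in treated astrocytes (difference 1.91 ± 0.19, adjusted p = 0.000234).

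Some large differences came from rises in astrocytes. Slc2a6, a hexose transporter, went from 3.44, 2.18 and 2.77 CPM to 26.4, 23.0 and 27.0 in astrocytes and from 39.9, 42.3 and 33.0 to 64.8, 55.0 and 57.3 in neurons. It rose in both, 3.18 ± 0.17 and 0.62 ± 0.14, and the difference was 2.56 ± 0.22 (adjusted p = 8.78e-05). Etv1, an ETS transcription factor, rose in astrocytes from 2.56, 2.62 and 3.15 CPM to 8.91, 8.18 and 11.5 and did not pass the test in neurons (-0.35 ± 0.16), a difference of 2.12 ± 0.24 (adjusted p = 0.000456). Adamts14, a protease that processes procollagen, and Gpd1, glycerol-3-phosphate dehydrogenase, fell in neurons (-1.35 and -1.29) and were at 0.66 and 0.65 in astrocytes without a call (differences 2.02 ± 0.48, adjusted p = 0.0188, and 1.94 ± 0.38, adjusted p = 0.00776). On the other side, Txnip, which binds thioredoxin and limits glucose uptake, rose from 39.0, 41.5 and 32.4 CPM to 196, 164 and 171 in neurons and was at 416, 389.8 and 344 and 370.4, 366 and 312 in astrocytes. TM brought the neuron level closer to that of astrocytes, and the difference was -2.36 ± 0.17 (adjusted p = 5.08e-05).

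Genes that moved in opposite directions numbered 66 that rose in neurons and fell in astrocytes and 52 that did the reverse. Beside Gbp2, Gbp6 and Igtp, the first group included Hspb8, which rose from 52.6, 59.4 and 52.0 CPM to 149.7, 79.3 and 94.2 in neurons and fell from 561, 529.8 and 514 to 257, 226 and 227 in astrocytes. All treated neuron libraries lay above the controls and all treated astrocyte libraries below (difference -2.16 ± 0.26, adjusted p = 0.00061). Igsf10, of the immunoglobulin superfamily, and Adamtsl4, a matrix protein, did the same at lower levels, with differences of -2.33 ± 0.33 (adjusted p = 0.00131) and -1.96 ± 0.33 (adjusted p = 0.00387). The second group included Flrt2, an adhesion protein of axon guidance, which fell from 59.4, 56.1 and 65.9 CPM to 15.9, 37.7 and 23.0 in neurons and rose from 12.6, 13.1 and 14.7 to 24.1, 34.3 and 35.5 in astrocytes (difference 2.46 ± 0.35, adjusted p = 0.00143). Dgkb, a diacylglycerol kinase, and Unc5c, a netrin receptor, had differences of 2.32 ± 0.41 (adjusted p = 0.00479) and 1.90 ± 0.32 (adjusted p = 0.00363). Dusp4 and Spry4, both feedback inhibitors of the ERK kinase cascade, fell in neurons (-1.19 and -0.82) and rose in astrocytes (0.80 and 0.79), with differences of 1.99 ± 0.24 (adjusted p = 0.000739) and 1.61 ± 0.26 (adjusted p = 0.00286).

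Genes that fell alike in both cell types, with the interval of the difference within 0.5 log2, numbered 55. Nuak1, a kinase related to AMPK, fell from 152, 159 and 138 CPM to 89.0, 84.3 and 77.8 in neurons and from 493, 537 and 515 to 235, 268 and 259.8 in astrocytes (95% interval of the difference -0.47 to 0.11). Plod2, a lysyl hydroxylase of collagen (-0.75 and -0.82), and Tpm1, a tropomyosin (-0.66 and -0.71), fell in both. The nuclear protein Aff3, the RNA-binding protein Csdc2 and the ubiquitin ligase Rnf19b belonged there too (-0.90, -0.74 and -0.65 in neurons).

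Cholesterol synthesis and uptake fell in both cell types and more in neurons. Of 24 genes, 17 fell in neurons and 9 in astrocytes, all 9 in both. The medians were -0.89 and -0.29, and 7 differed, all higher in astrocytes (5 to 9 with each library left out). Stard4, a cholesterol carrier, had the largest difference of the list: it fell from 95.9, 76.8 and 87.0 CPM to 17.9, 20.5 and 23.0 in neurons, with -0.52 ± 0.16 in astrocytes below the threshold (difference 1.56 ± 0.23, adjusted p = 0.00147). Mvd, which makes isopentenyl pyrophosphate, and Hsd17b7, a sterol reductase, fell in neurons (-1.50 and -1.24) and had differences of 1.25 ± 0.27 (adjusted p = 0.013) and 0.71 ± 0.15 (adjusted p = 0.0118). Ebp, a sterol isomerase, was the only member that rose, in both, and was named after its value was seen.

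**Figure D4:**
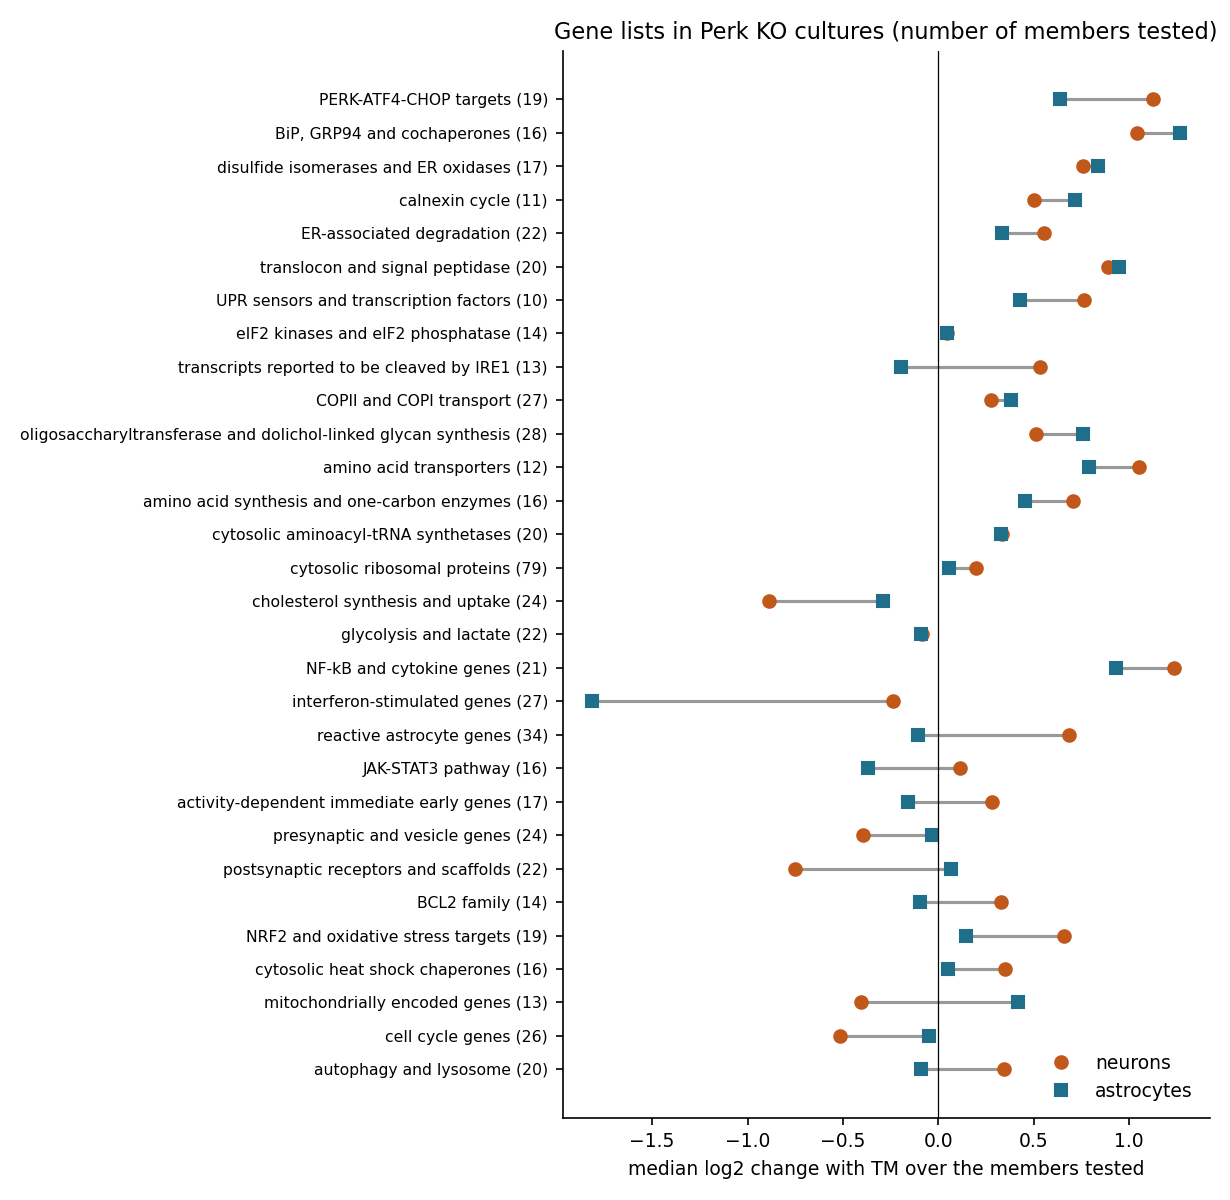
Median log2 change with TM over the tested members of each gene list (x axis) in Perk KO neurons (circles) and astrocytes (squares), with the number tested in brackets. ER lists lie to the right in both, interferon-stimulated genes lie at -1.81 in astrocytes and -0.24 in neurons, and cholesterol and postsynaptic genes lie further left in neurons.

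The remaining lists are given by their counts. As background for the unadjusted counts, 4432 of all 16059 genes tested had an unadjusted p under 0.05 for the difference. For the response in astrocytes 3502 had one. Calnexin cycle genes, which fold glycoproteins, rose for 7 of 11 in each cell type, and 3 differed (2 higher and 1 lower in astrocytes, 0 to 4 and 1 to 2 with each library left out). Vesicle coat genes of ER and Golgi traffic rose for 13 of 27 in each, and 3 were higher in astrocytes, none without any 1 of 9 libraries. Of 16 genes for amino acid synthesis, 11 rose in neurons and 4 in astrocytes, and 2 were lower in astrocytes, Shmt2, a serine hydroxymethyltransferase (-1.01), and Gpt2, an alanine aminotransferase (-0.52). Neither was called without control astrocyte replicate 2, TM-treated neuron replicate 3 or control neuron replicate 2 or 3, and 1 of them was without TM-treated astrocyte replicate 2 or 3, control astrocyte replicate 3 or control neuron replicate 1. Gpt2 also lost its call with the GC correction (adjusted p = 0.0634). Of 20 tRNA synthetases, 7 rose and 1 fell in neurons and 5 rose in astrocytes, with no difference called by edgeR, 2 at an unadjusted p under 0.05, 1 by DESeq2, and 4 with a replicate block. Of 79 ribosomal protein genes, 2 rose in neurons and 1 in astrocytes, with no difference called by edgeR or DESeq2 and none at an unadjusted p under 0.05. Of 14 eIF2 kinase and phosphatase genes, 3 rose and 2 fell in neurons and 2 rose and 1 fell in astrocytes, with 1 difference, Ppp1r15a. Of 10 sensors and transcription factors of the ER, 7 rose in neurons and 3 in astrocytes, with Xbp1 higher and the protease Mbtps1 lower (-0.48) in astrocytes. The call of Mbtps1 (adjusted p = 0.0339) was lost without any 1 of 8 libraries (up to 0.0945), with DESeq2's size factors (0.0504), with the GC correction (0.064) and without the filter on low counts (0.171).

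Of 24 presynaptic genes, 2 rose and 9 fell in neurons and 2 rose and 2 fell in astrocytes, with 4 differences higher and 1 lower in astrocytes (1 to 6 and 0 to 1 with each library left out). Of 17 activity-dependent genes, 2 rose and 5 fell in neurons and 1 fell in astrocytes, with 2 higher (1 without any 1 of 9 libraries) and 3 lower. Of 22 glycolysis genes, 3 rose and 5 fell in neurons and 1 rose and 4 fell in astrocytes, with 2 lower (2 higher and 4 lower with a replicate block). The count called lower was 1 without any 1 of 9 libraries and 5 without TM-treated neuron replicate 2, and 2 were called higher without TM-treated neuron replicate 1. Of 26 cell cycle genes, 2 rose and 9 fell in neurons and none changed in astrocytes by edgeR (1 by DESeq2 and 2 at an unadjusted p under 0.05), with 3 higher and 2 lower. Without TM-treated neuron replicate 1 or 2 the count called higher was 6, and the count called lower was 1 without any 1 of 8 libraries. Of 13 mitochondrially encoded genes, 2 fell in neurons and none changed in astrocytes by edgeR or DESeq2 (6 at an unadjusted p under 0.05). Their difference was called for 1 by edgeR and 6 by DESeq2, and for 7 without TM-treated neuron replicate 1. In that library all genes with names starting with mt-, not only the 13, took 5.98% of all counts, against 4.68% and 3.63% in replicates 2 and 3. Markers of oligodendrocyte lineage cells differed for 2 of 8 tested (1 higher, 1 lower, and 2 higher without TM-treated astrocyte replicate 2 or control astrocyte replicate 3), and of fibroblasts and mural cells for 1 of 10 (lower). For microglia none of 11 differed by edgeR or DESeq2 (2 at an unadjusted p under 0.05, and 1 with a replicate block), and for endothelial cells none of 3 by any of these.

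The same difference between cell types was tested in WT cells and then set against that in Perk KO cells over all 24 libraries. In WT it was called higher in astrocytes for 2220 of 15924 genes and lower for 2289 (13.9% and 14.4%). The difference in Perk KO minus the difference in WT was called for 878 genes, 546 positive and 332 negative (3.43% and 2.08%), and for 1560 with a replicate block. With library totals in place of TMM the median of this value over all genes moved by 0.22 and the calls became 911 positive and 120 negative, and the values below are with TMM. DESeq2 called 736 positive and 795 negative. The differences in Perk KO are those of the 12-library fit, while the WT differences and the changes come from the fit of all 24, so the first minus the second can deviate from the change. The difference of Hspa5 was 0.39 in Perk KO and -0.56 in WT, and the change between genotypes was 1.02 ± 0.30 (adjusted p = 0.0477). This call was lost with DESeq2's size factors (0.0512) and without any 1 of 19 of the 24 libraries (up to 0.0871). That of Atf3 was -3.04 and -3.01 (change 0.02 ± 0.50, adjusted p = 1), and that of Ddit3 -1.29 and -1.41 (change 0.18 ± 0.46, adjusted p = 0.886), neither called. Of the 19 PERK-ATF4-CHOP targets, 7 had a difference called lower in astrocytes in Perk KO and 15 in WT, with median differences of -0.66 and -1.41. The change was called positive for 1 of the 19 and negative for none (median 0.30). The positive calls were 4 with a replicate block and 2 with DESeq2 or library totals. None of the translocon, disulfide isomerase or degradation genes was called here by edgeR in the main fit, with 1, 0 and 6 at an unadjusted p under 0.05. Other edgeR fits called degradation genes: 1 positive and 3 negative with a replicate block, 1 positive with library totals and 1 negative with DESeq2's size factors. DESeq2 called 0, 0 and 4.

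Postsynaptic and cholesterol genes stood on opposite sides of this test. Of 22 postsynaptic genes, 5 were called positive and none negative (median 1.40, against 0.01 over all genes), and 8 and none with library totals, DESeq2 or a replicate block. Of 23 presynaptic genes tested here 1 was called positive and none negative (2 and 2 with a replicate block), and of 17 activity-dependent genes none was positive and 3 were negative (median -1.04). Camk2a was at a difference of 0.90 in Perk KO and -2.83 in WT (3.79 ± 0.44, adjusted p = 2.1e-05), and the glutamate receptor gene Gria1 at 1.02 and -2.74 (3.83 ± 0.70, adjusted p = 0.00211). Of 24 cholesterol genes, 11 were called negative and none positive (median -0.89), and 9 and none with library totals. There Mvd had differences of 1.25 in Perk KO and 2.85 in WT (-1.55 ± 0.34, adjusted p = 0.0096). In WT, 21 of the 24 had a difference called higher in astrocytes, and in Perk KO 7. Among interferon-stimulated genes 2 of 27 were called, Gbp2 (-2.99 in Perk KO, -0.32 in WT, change -2.61 ± 0.62, adjusted p = 0.0152) and Oasl2 (-2.05 and 1.23, change -3.22 ± 0.81, adjusted p = 0.0203), both negative. With a replicate block 5 were negative and 1 positive, and DESeq2 called 3 negative and none positive. The largest positive changes beside these were those of St8sia1, which makes the ganglioside GD3 (4.38 ± 0.70), and D130043K22Rik (4.34 ± 0.78). Their differences were 0.30 and -0.22 in Perk KO, with no call, and -4.02 and -4.50 in WT.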

How the data were processed

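RNA-seq libraries were made from total RNA with a paired-end kit that keeps no strand, per the labels' protocols, and the authors deposited raw counts of reads per gene. Trimming, alignment, counting and testing used fastp, HISAT2, featureCounts and DESeq2 with GRCm38.p6, per the submitters' processing notes, and the versions are not given in the sources used here. Gene names and biotypes came from the deposited tables. Each library occurs in 2 deposited tables, which held the same counts. Of 32728 genes listed, 16059 averaged 10 counts or more across the 12 Perk KO libraries and were tested with edgeR 4.0.16 (R 4.3.3), TMM scaling, 4 group means and a quasi-likelihood F test, with p-values adjusted by the Benjamini-Hochberg method over all genes tested and 0.05 as the threshold. A second fit took all 24 libraries and tested 15924 genes. The tests were tried on simulated counts. Standard errors were the absolute log2 change divided by the square root of F, and intervals covered 95%. Library totals were 17161558 to 25934747 counts. Taken over all genes, replicates varied beyond counting error, but for genes with few counts that error also limits the precision.

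Named genes were 20 fixed genes, the 10 largest differences in each direction among protein-coding genes of at least 100 counts on average in each cell type, 6 for each pattern (opposite, alike and largest change between genotypes) and the 4 members of smallest p of each list described by its members, of which 1 is not reported here. The comparison, these rules and the lists were chosen with earlier results of these data known. Alternatives were other scalings, DESeq2 1.42.0, other filters, a GC correction in 20 bins, a replicate block and leaving out each library. Same-numbered control and TM libraries deviated together in astrocytes (correlations 0.42, 0.26 and 0.39) and not in all neurons (0.20, -0.06 and 0.03), and the labels call them biological replicates without saying that a number is shared between groups. Gbp genes, Ifit3 and Ifit3b, and Hspa1a and Hspa1b are similar in sequence, so their counts are uncertain, as are those of overlapping genes without strand.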

Additional observations from a re-analysis of the deposited data

Results flagged for a closer look

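For 31 of the named genes the difference between the cell types itself differed between Perk KO and WT, by edgeR's test over all 24 libraries with Benjamini-Hochberg adjustment over 15924 genes. The values below are the difference in Perk KO minus the difference in WT, on the log2 scale, and their sign may change with the scaling for small values, since library totals moved the median over all genes by 0.22. Of the 31 calls, 24 held without each of the 24 libraries in turn. Those of Hspa5, Adamts14, Ifit3b, Txnip, Unc5c, Ggta1 and Ulk1 were lost without any 1 of 11 to 19 libraries (adjusted p up to 0.126). Under the other alternatives, those of Hspa5 and Txnip were lost with DESeq2's size factors (0.0512 and 0.0545), those of Ggta1 and Ulk1 with library totals (0.104 and 0.162), that of Ggta1 with a replicate block (0.0717), and those of Bbc3, Txnip and Ulk1 without the filter on low counts (0.053, 0.138 and 0.101).

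Genes of neuronal signalling and adhesion had positive values, which mark a response that was more positive in astrocytes, or less positive in neurons, in Perk KO than in WT. They were Camk2a (3.79), Gria1 (3.83), Grin2b (3.16), Nlgn1 (2.73), the netrin receptor Unc5c (2.43), Camk4 (2.47), Mef2c (3.08) and Dgkb (4.24). Rab3d, a GTPase of vesicle release, had 3.82 (adjusted p = 4.34e-06), with a difference of 0.71 in Perk KO and -3.06 in WT. Tubb3, at -1.96, went the other way. For the list of postsynaptic genes, the medians in each cell type and genotype are given above.

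The named cholesterol genes Hsd17b7, a sterol reductase (-1.19), and Mvd, a decarboxylase (-1.55), had negative values. So did Dgat2, which makes triglycerides (-2.25, from 1.37 in WT to -0.94 in Perk KO), the alanine and aspartate aminotransferases Gpt2 (-0.85) and Got1 (-1.35), and the autophagy kinase Ulk1 (-0.84). The interferon-related genes Gbp2 (-2.61), Ifit3b (-3.25) and Oasl2 (-3.22) and the galactosyltransferase Ggta1 (-1.07) were negative too.

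Stress genes with positive values were the chaperone gene Hspa5 (1.02), Bbc3 (0.96) and Txnip (0.74). Bbc3 and Txnip kept a difference below 0 in both genotypes (-1.74 and -2.36 in Perk KO, -2.65 and -3.04 in WT). Nuak1 (1.43) and Csdc2 (1.68), which fell alike in both cell types in Perk KO, had a difference of -1.55 each in WT. The remaining values were 2.95 for Etv1, 2.45 for Adamts14, 4.38 for St8sia1, 4.34 for D130043K22Rik, -2.79 for the zinc finger gene Zcchc12 (2.43 in WT and -0.43 in Perk KO) and -2.13 for Elmo1, which takes part in engulfment of dying cells (2.91 in WT and 0.72 in Perk KO).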

How the results depend on the processing

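The difference between cell types in Perk KO was called for 1875 genes, for 3107 with the GC correction and replicate block together, for 2777 with the replicate block alone, and for 1010 to 3383 with each library left out. Without the filter on low counts its calls were 1038 higher and 946 lower, against 767 and 1108. The astrocyte response of 1541 genes became 2435 with the GC correction and replicate block and 991 to 1332 with each astrocyte library left out. The difference between genotypes of 878 genes became 1531 with DESeq2, 1560 with the replicate block and 2038 with the GC correction and replicate block, and 623 to 1149 with each of 24 libraries left out. The neuron response of 4452 genes stayed within 1.5 times that count, from 3130 to 5535 with each library left out. Of 92 called differences of named genes, 70 were called without each of the 12 libraries in turn and 22 were lost without at least 1. Of 124 called results of named genes, 123 were called with the replicate block, the exception being Derl3 (adjusted p = 0.0515), 124 with DESeq2, and 118 with DESeq2's size factors, with the GC correction and without the filter, and none changed sign. The uncalled difference of Atf4, -0.00, was 0.0499 with DESeq2, 0.0498 with its size factors, 0.12 with the GC correction with and without the replicate block, 0.00866 with at least 10 counts required in each cell type and 0.0555 without a filter, and -0.19 to 0.20 with each library left out. The uncalled differences of Asns (-0.146 to 0.415), Pdia4 (-0.052 to 0.189) and Atf6 (-0.030 to 0.143) also changed sign with 1 library left out. The cause of these shifts was not tested. With 3 libraries a group, a difference that was not called may still exist, and 1491 genes tested averaged under 10 counts in 1 of the cell types.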
